A study of Rattus norvegicus with 10 samples.

Results

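Receptors that leukocytes use to read other cells were examined in lung of Cmg2-KO and WT rats: killer cell lectin-like receptors (gene names starting with Klr), other C-type lectins (Clec), leukocyte immunoglobulin-like receptors (Lilr), sialic acid-binding immunoglobulin-like lectins (Siglec) and the class I-like gene Micb. Every gene with such a name in the authors' deposited table was taken, which gave 14 genes of 1319. The table lists only genes with an unadjusted p-value under 0.05 for Cmg2-KO against WT, so the genes were selected on the difference between genotypes, and their values are a description of it. RNA was sequenced from lung of Sprague Dawley rats, an outbred strain, at 8 weeks of age. There were 5 libraries from Cmg2-KO rats, which lack the anthrax toxin receptor gene Cmg2 (ANTXR2), and 5 from WT rats of the same strain and age. The labels name no treatment, no sex and no way in which Cmg2 was inactivated, and they do not say whether libraries came from separate animals, so the SDs measure the spread between libraries. The targeted gene, Antxr2, was not analysed here. The lung label could be checked on 2 of 8 lung epithelial genes, the surfactant gene Sftpb at 42133 to 48747 in Cmg2-KO and 45665 to 65237 in WT and the club cell gene Scgb1a1 at 84205 to 175952 in Cmg2-KO and 143906 to 195238 in WT, and the other 6 were not analysed here. Values are read counts divided by the authors by a size factor for each library, called scaled counts below. Lung was sequenced whole, so fewer cells of a type and less RNA per cell cannot be told apart.

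Natural killer (NK) cells weigh activating against inhibitory receptors when they meet another cell. In rodents most of these receptors are C-type lectin-like proteins whose genes lie side by side in the NK gene complex. The complex holds the NKG2 receptors (Klrc), which pair with CD94 and bind class Ib molecules, the Klre and Klri receptors, the large Ly49 family (Klra), which binds class I molecules, and the Clec2 proteins, some of which are ligands of NK receptors. Leukocyte immunoglobulin-like receptors and Siglecs are found mainly on myeloid and B cells, and many of them carry inhibitory motifs. The Ly49 genes in particular differ in number and sequence between rat strains.

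Of the 14 genes, 9 were higher and 5 lower in Cmg2-KO, where 48.2% of all listed genes were higher. The higher genes were Clec2dl1, Klre1, Klrc2, Klri1, Klri2, Lilrb2, Lilrb3, Lilrb3a and Micb, and the lower genes were Clec1a, Clec4m, Klra1, Klra2 and Siglec5. The median log2 fold change was 0.93 over the 14 genes and -0.15 over the 1308 listed genes that passed a filter on low values, on the scale of log2(scaled count + 1). All 14 passed that filter, Klra1 with values above 0.5 in its 5 WT libraries and 3 of its Cmg2-KO libraries. In the authors' deposited table, an adjusted p-value below 0.05 stood beside 5 of them, Clec2dl1, Klrc2, Lilrb3, Micb and Siglec5, and beside 5.46% of listed genes. Of these, 4 were higher in Cmg2-KO, where 3.11% of listed genes were both higher and past that threshold. None passed limma's adjusted threshold of 0.05, which 0.229% of tested genes passed, while 11 of 14 had an unadjusted limma p under 0.05, as did 79.1% of tested genes. On the recovered reads of 9 libraries edgeR also passed 0 of the 14, and 1 of all listed genes. DESeq2 passed 2 of the 14, Clec2dl1 and Micb, and 49 of all listed genes. With WT 4 included, a choice made after seeing the data, edgeR passed 0 of the 14, and 2 of all listed genes. DESeq2 then passed 4 of the 14, Klrc2 and Lilrb3 being added, and 66 of all listed genes. The libraries of the genotypes did not overlap for 3 genes, Clec2dl1, Klrc2 and Klra1, against 16.3% of listed genes. Since the same contrast chose the genes, nothing is read from these counts. The gene nearest to the limit of the table was Clec1a, with an unadjusted p of 0.0486 in the authors' deposited table, and genes beyond the limit were not analysed here.

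**Figure D1:**
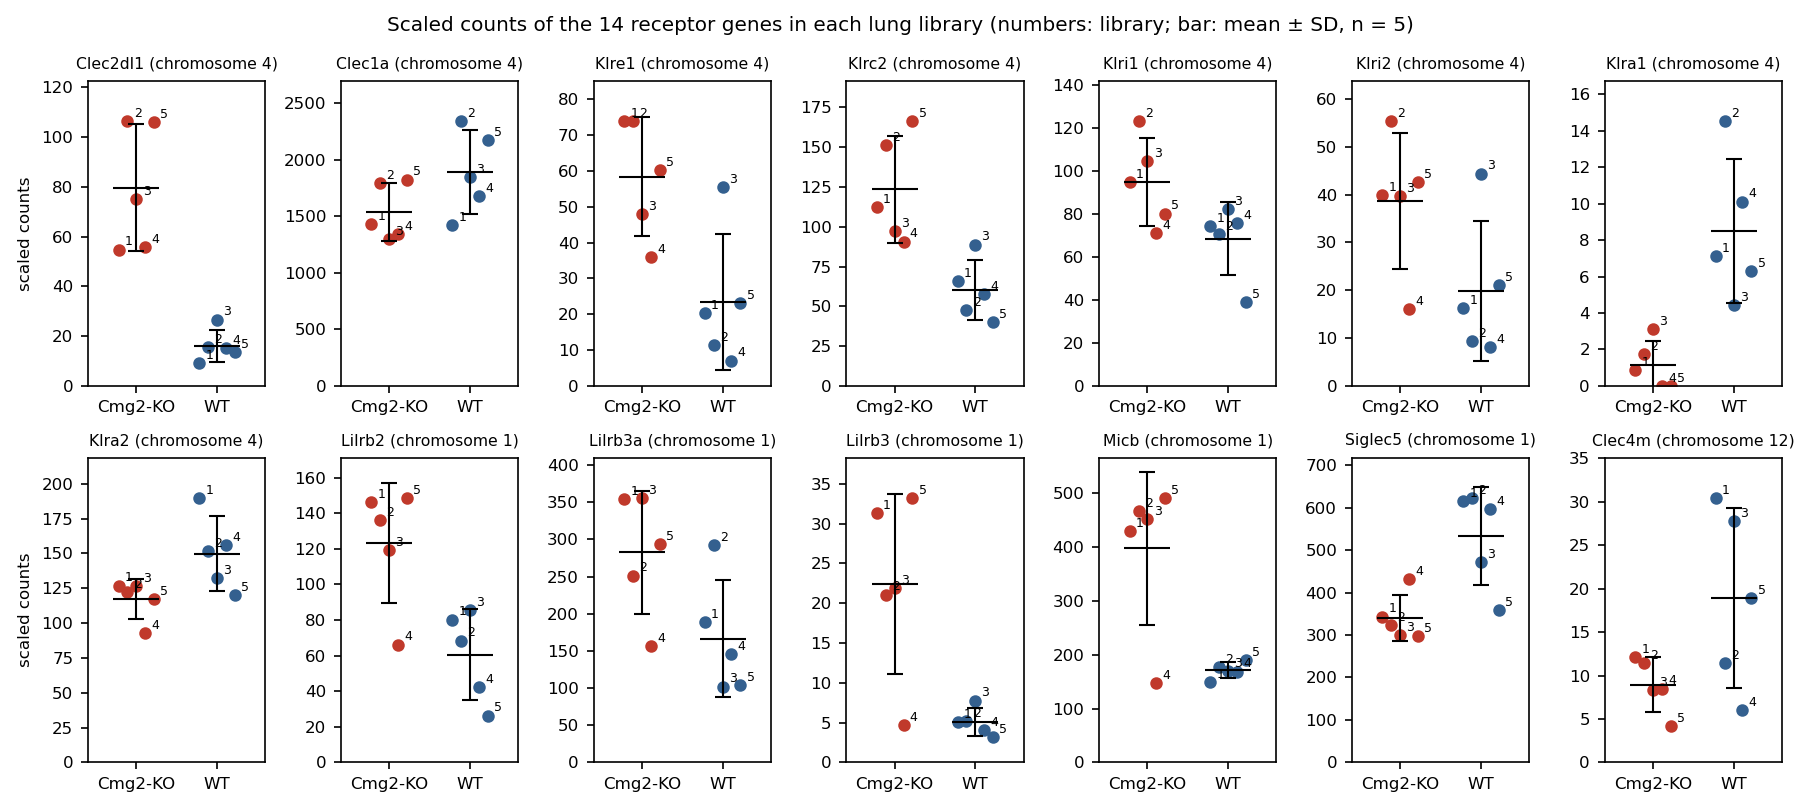
Scaled counts of the 14 genes in each library, with Cmg2-KO on the left and WT on the right of each panel. Points are libraries with their numbers and bars are the mean ± SD (n = 5). Library Cmg2-KO 4 lies apart from the other Cmg2-KO libraries for Micb (147 against 430.2 to 492) and Lilrb3 (4.73 against 21.1 to 33.3).

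Per length, the lung levels of these genes spanned a wide range. In scaled counts per kilobase of the authors' gene length, Clec1a was highest at a mean of 466 in Cmg2-KO and 574 in WT. Micb had 332 in Cmg2-KO and 143 in WT, and Siglec5 had 125 in Cmg2-KO and 197 in WT, so Micb was second in Cmg2-KO and Siglec5 second in WT. Klra1 was lowest in Cmg2-KO at 0.969 per kilobase, against 7.15 in WT, and Lilrb3 was lowest in WT at 2.09, against 9.29 in Cmg2-KO. Reads of close family copies can be divided differently by the aligner and the counting step, so levels of Klr, Ly49 and Lilr genes are uncertain.

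Positions are those of the authors' table, which names no genome build. By these, 8 of the 14 genes lay on chromosome 4, 5 on chromosome 1 and 1 on chromosome 12. The 8 on chromosome 4 were Clec2dl1, Clec1a, Klre1, Klrc2, Klri1, Klri2, Klra1 and Klra2 in map order, and RefSeq's annotation of the GRCr8 assembly gives the same order. RefSeq lists 80 genes with such names, 73 of them protein-coding, and 13 of the 14 matched one by symbol, all but Lilrb3a. Of 26 Klr genes named there 6 were in the table, of 39 Clec genes 3, of 7 Siglec genes 1 and of 7 Lilr genes 2, Lilrb3a having no match. Of all 19894 genes in the authors' adjustment 6.63% were in the table, and since presence in it chose the genes, nothing is read from these shares. The interval on chromosome 4 also held 10 other listed genes whose starts lay within 1 Mb of one of the 8, so that 18 listed genes are described over 3.26 Mb.

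**Figure D2:**
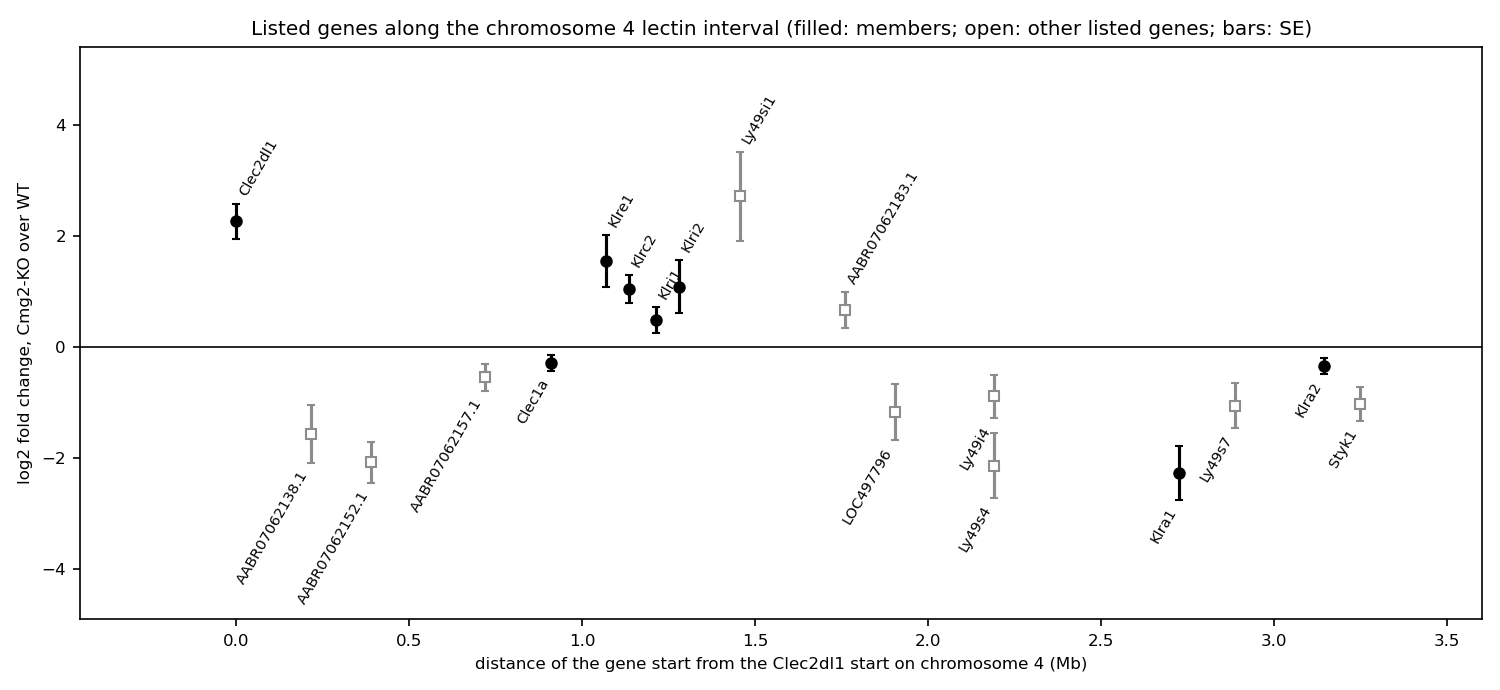
Difference between Cmg2-KO and WT means of log2(scaled count + 1) for the 18 listed genes of the chromosome 4 interval, plotted at the distance in Mb of each gene start from that of Clec2dl1. Filled circles are the 8 genes named above, open squares are other listed genes, and bars are the SE of limma. A run of 6 genes from Klre1 to AABR07062183.1 is higher in Cmg2-KO and the 7 genes after it are lower. The ends of the run were set where the direction changes. Of all 18 genes 7 are higher and 11 lower.

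Shown are the promoters of the 5 genes, among the 8 named above, that were each higher in Cmg2-KO, so that direction chose the promoters. They run from 250 bases before to 50 bases after the annotated start, 5′ to 3′ on the gene's strand, and come from RefSeq on GRCr8, a build that need not be the one behind the authors' positions. Capitals mark the RUNX core TGTGGT or its reverse complement ACCACA and the ETS site AGGAAGT or its reverse complement ACTTCCT, which do not overlap each other here. The windows are chr4:163949438-163949737 (plus strand) for Clec2dl1, chr4:164719354-164719653 (plus) for Klre1, chr4:164819816-164820115 (minus) for Klrc2, chr4:164904819-164905118 (minus) for Klri1 and chr4:164947455-164947754 (minus) for Klri2.
Clec2dl1: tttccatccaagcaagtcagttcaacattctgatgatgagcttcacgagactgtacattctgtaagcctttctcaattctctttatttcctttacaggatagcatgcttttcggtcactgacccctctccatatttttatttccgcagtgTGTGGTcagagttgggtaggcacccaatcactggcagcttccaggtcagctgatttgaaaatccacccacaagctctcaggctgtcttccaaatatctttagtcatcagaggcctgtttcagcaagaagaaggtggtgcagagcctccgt
Klre1: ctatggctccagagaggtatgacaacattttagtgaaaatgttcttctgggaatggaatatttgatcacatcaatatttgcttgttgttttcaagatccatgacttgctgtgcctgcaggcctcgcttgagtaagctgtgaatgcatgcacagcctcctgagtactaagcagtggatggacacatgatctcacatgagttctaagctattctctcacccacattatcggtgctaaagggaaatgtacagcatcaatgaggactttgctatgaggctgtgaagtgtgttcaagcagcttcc
Klrc2: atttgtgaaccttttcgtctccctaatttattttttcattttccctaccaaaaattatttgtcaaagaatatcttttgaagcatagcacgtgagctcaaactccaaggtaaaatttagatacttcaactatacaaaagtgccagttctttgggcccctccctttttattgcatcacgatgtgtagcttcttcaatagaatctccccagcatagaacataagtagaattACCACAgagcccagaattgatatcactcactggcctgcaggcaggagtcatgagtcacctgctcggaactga
Klri1: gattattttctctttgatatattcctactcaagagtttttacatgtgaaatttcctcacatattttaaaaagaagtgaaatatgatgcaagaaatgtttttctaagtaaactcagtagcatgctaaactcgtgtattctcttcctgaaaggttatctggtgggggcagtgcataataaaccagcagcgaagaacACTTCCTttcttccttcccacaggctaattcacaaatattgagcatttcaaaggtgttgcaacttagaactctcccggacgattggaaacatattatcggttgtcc
Klri2: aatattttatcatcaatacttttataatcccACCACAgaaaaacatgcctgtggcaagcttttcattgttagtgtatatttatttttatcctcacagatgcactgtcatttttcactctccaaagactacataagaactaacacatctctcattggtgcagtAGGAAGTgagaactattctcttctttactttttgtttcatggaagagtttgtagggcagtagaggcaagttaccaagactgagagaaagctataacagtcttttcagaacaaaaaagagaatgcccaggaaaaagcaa
The RUNX core letters stood in the windows of Clec2dl1, Klrc2 and Klri2, and the ETS letters in those of Klri1 and Klri2. Of the 11 genes with a promoter in the table, 6 held the RUNX letters and 3 the ETS letters, against 17.3% and 8.41% of all 33469 promoters of this length. RUNX and ETS proteins are transcription factors of lymphocytes, and a match of letters is a description, not a site.

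Clec2dl1 (ENSRNOG00000007866, chromosome 4, 162281574 to 162402635, plus strand) is a C-type lectin of the Clec2d group, whose rodent members include ligands of NKR-P1 receptors. It stood at 54.8, 106.3, 75.2, 55.8 and 106.0 scaled counts in Cmg2-KO libraries 1 to 5, against 9.14, 15.6, 26.6, 15.2 and 13.7 in WT libraries 1 to 5. All Cmg2-KO libraries lay above all WT libraries, of which WT 3 was the highest. The mean was 79.6 ± 25.6 in Cmg2-KO and 16.0 ± 6.45 in WT (SD, n = 5 each), a ratio of 4.96 and a log2 fold change of 2.26 ± 0.31 (SE). Among the 9 higher genes this was the largest ratio. Clec1a (163191503 to 163214678, minus strand), a lectin of endothelial and myeloid cells, ranged from 1298 to 1824 in Cmg2-KO, against 1424 to 2339.9 in WT. Its genotypes overlapped widely, with a log2 fold change of -0.29 ± 0.15 (SE).

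The KLRE1 chain pairs in rat with KLRI1 to make an inhibitory receptor and with KLRI2 to make an activating one. Klre1 (chromosome 4, 163349125 to 163354976, plus strand) stood at 73.9, 73.8, 48.0, 35.9 and 60.3 scaled counts in Cmg2-KO libraries 1 to 5, against 20.3, 11.4, 55.5, 7.08 and 23.1 in WT libraries 1 to 5. Klri2 (163561966 to 163570864, minus strand) stood at 40.0, 55.4, 39.7, 16.1 and 42.6 in Cmg2-KO libraries 1 to 5, against 16.3, 9.33, 44.4, 8.09 and 21.0 in WT libraries 1 to 5. For both genes WT 3 lay among the Cmg2-KO libraries and the other WT libraries were lower than all Cmg2-KO libraries for Klre1, while for Klri2 Cmg2-KO 4 lay within the WT range. The log2 fold change was 1.55 ± 0.47 for Klre1 and 1.09 ± 0.47 for Klri2 (SE), and without WT 3 it was 1.93 and 1.43. Klri1 (163495003 to 163528220, minus strand) ranged from 70.9 to 123.0 in Cmg2-KO, against 38.9 to 82.1 in WT, with a log2 fold change of 0.48 ± 0.23 (SE), and 0.29 without WT 5, its lowest library. From library to library within the genotypes, Klre1 and Klri2 moved together, with Pearson's r of 0.94 and Spearman's rho of 0.84 over 10 libraries after the genotype means were removed. Without the 2 libraries where Klre1 was farthest from its median, r was 0.90. The same r was 0.24 between Klri1 and Klri2. These points share libraries and depth, and r is a description.

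**Figure D3:**
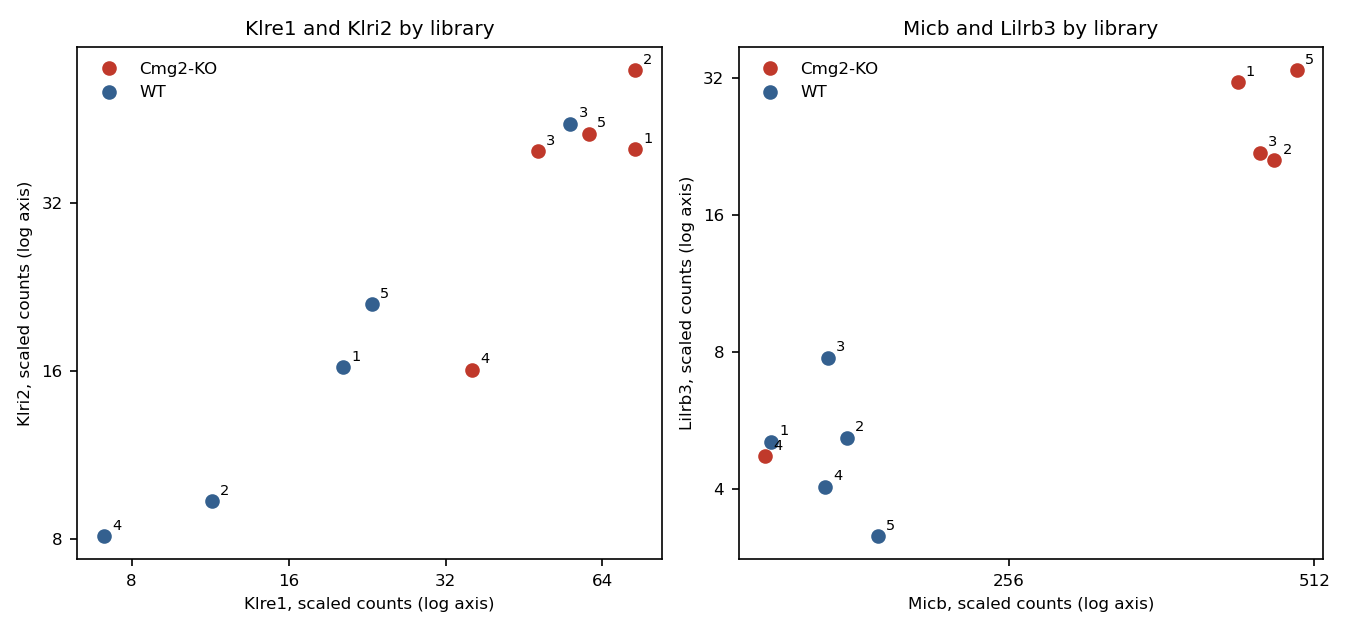
Scaled counts of Klri2 against Klre1 (left) and of Lilrb3 against Micb (right), on log axes, with 1 point per library, Cmg2-KO in red and WT in blue, numbered by library. WT 3 lies with the Cmg2-KO libraries on the left, and Cmg2-KO 4 lies with the WT libraries on the right.

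Klrc2 (ENSRNOG00000052467, chromosome 4, 163416351 to 163445302, minus strand) encodes an NKG2 receptor chain. It stood at 112, 151, 97.1, 90.7 and 166 scaled counts in Cmg2-KO libraries 1 to 5, against 66.0, 47.7, 88.8, 57.6 and 40.0 in WT libraries 1 to 5. All Cmg2-KO libraries were above all WT libraries, with Cmg2-KO 4 and WT 3 close to each other. The mean was 123 ± 33.5 in Cmg2-KO and 60.03 ± 18.9 in WT (SD, n = 5 each), a log2 fold change of 1.04 ± 0.25 (SE).

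Klra1 and Klra2 are Ly49 genes farther along the complex and were lower in Cmg2-KO. Klra1 (165005725 to 165026414, minus strand) stood at 0.869, 1.76, 3.13, 0 and 0 scaled counts in Cmg2-KO libraries 1 to 5, against 7.11, 14.5, 4.44, 10.1 and 6.31 in WT libraries 1 to 5. In Cmg2-KO these are at most 3 reads per library, and the genotypes did not overlap. Klra2 (165424763 to 165460075, minus strand) ranged from 92.6 to 127 in Cmg2-KO, against 119.9 to 189.9 in WT, with a log2 fold change of -0.34 ± 0.15 (SE). RefSeq gives each of these symbols as an older name of the other gene, so the names may be exchanged between annotations.

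From Klre1 to AABR07062183.1, a stretch of 0.703 Mb, all 6 listed genes were higher in Cmg2-KO. The ends of this stretch were set where the direction changes, so nothing is read from the shared direction. Over the whole interval 7 of 18 listed genes were higher and 11 lower, where 48.2% of all listed genes were higher. In all 6 genes of the stretch WT 3 was the highest WT library and Cmg2-KO 4 the lowest Cmg2-KO library. Among them Ly49si1 (163736132 to 163890801, minus strand), described as a Ly49 immunoreceptor, had the widest spread. It stood at 467, 431, 282, 266 and 504 scaled counts in Cmg2-KO libraries 1 to 5, against 22.3, 20.7, 283, 17.2 and 243 in WT libraries 1 to 5. WT 3 and WT 5 thus lay near the lower Cmg2-KO libraries, and WT 1, WT 2 and WT 4 were far below all Cmg2-KO libraries. AABR07062183.1, described as similar to a Ly49 immunoreceptor, ranged from 37.8 to 99.8 in Cmg2-KO, against 24.3 to 65.5 in WT. After this stretch all 7 listed genes were lower in Cmg2-KO over 1.356 Mb, 5 of them Ly49 or Klra genes. Ly49s4 (164470397 to 164691405, minus strand), a stimulatory Ly49 receptor, stood at 0.869, 0.879, 0, 0 and 1.04 in Cmg2-KO libraries 1 to 5, against 12.2, 9.33, 1.11, 12.1 and 2.10 in WT libraries 1 to 5. Here WT 3 and WT 5, at 1 and 2 reads, were the WT libraries nearest to Cmg2-KO. Its model overlaps that of the inhibitory receptor gene Ly49i4 on the same strand, so their reads may be shared. Ly49i4 ranged from 19.9 to 40.4 in Cmg2-KO, against 17.9 to 82.9 in WT. Ly49s7 (165169065 to 165195489, minus strand), another stimulatory Ly49 receptor, ranged from 1.89 to 11.4 in Cmg2-KO, against 8.41 to 17.8 in WT. The last listed gene of the interval, Styk1, which encodes a receptor-like kinase and was named after its values were seen, ranged from 3.51 to 9.36 in Cmg2-KO, against 9.47 to 17.8 in WT. Among the 7 genes after the stretch WT 5 was the lowest WT library in 5. WT 3 was the highest WT library for Ly49s7 and Styk1, so its place differed between the lower genes. AABR07062152.1 (162672073 to 162680757, minus strand), described as a killer cell lectin-like receptor, lies before Klre1 and outside both runs. It was at 0 in all 5 Cmg2-KO libraries and at 2.02 to 6.66 in WT, which is 2 to 6 reads in the WT libraries where reads were recovered.

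**Figure D4:**
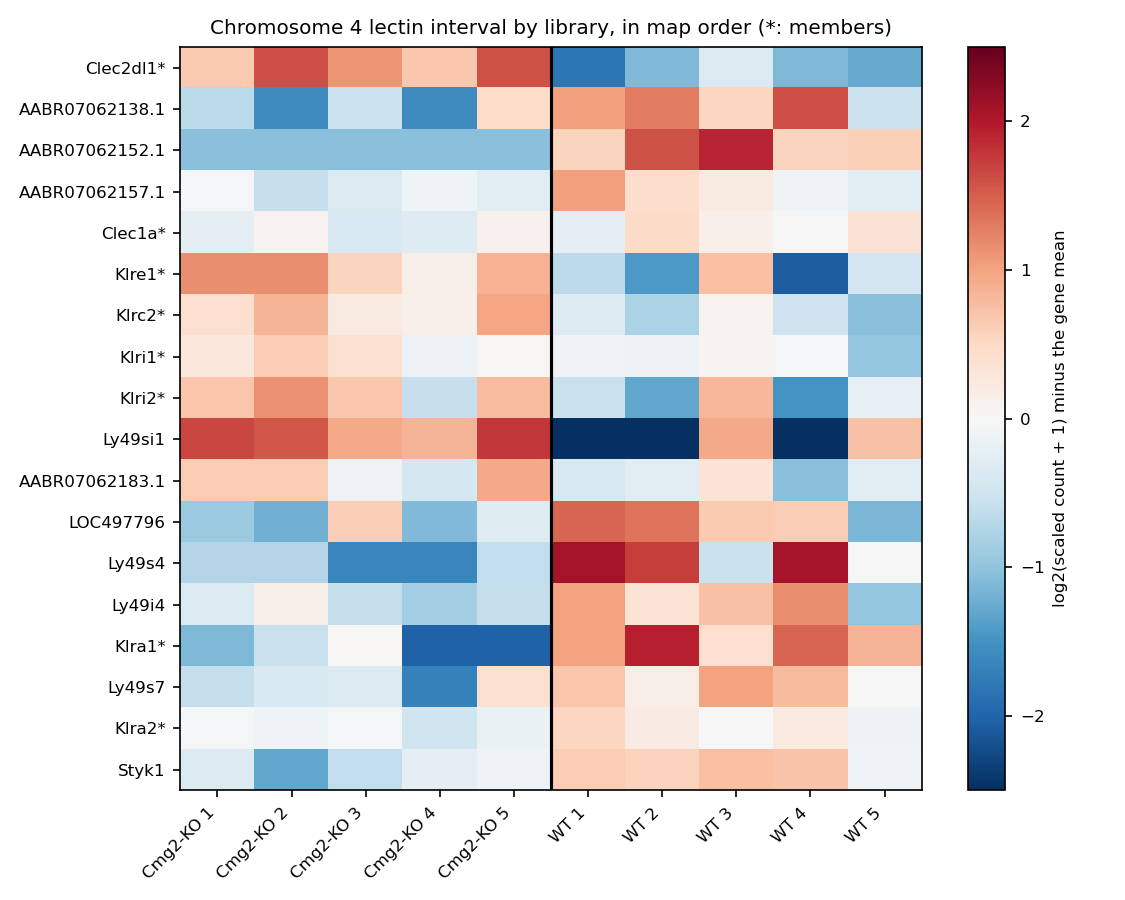
Log2(scaled count + 1) minus the gene's mean over the 10 libraries, for the 18 listed genes of the chromosome 4 interval in map order, with Cmg2-KO libraries in the left columns and WT libraries in the right ones. Red is above and blue below the gene's mean, the colours stop at 2.5 in either direction, and stars mark the 8 genes named above. WT 3 resembles the Cmg2-KO columns from Klre1 to Ly49si1, and Ly49si1 and Ly49s4 run in opposite directions among the WT columns.

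On chromosome 1, 4 of the 5 genes were higher in Cmg2-KO. Micb (ENSRNOG00000057645, 79754587 to 79772092, plus strand) encodes a class I-like molecule, for which RefSeq gives Mill2 as another name. It stood at 430.2, 467, 452, 147 and 492 scaled counts in Cmg2-KO libraries 1 to 5, against 149, 177, 169.8, 169 and 190.4 in WT libraries 1 to 5. Of the Cmg2-KO libraries 4 lay far above all WT libraries and Cmg2-KO 4 lay just below the lowest of them. The mean was 398 ± 142 in Cmg2-KO and 171 ± 14.9 in WT (SD, n = 5 each). Its log2 fold change was 1.10 ± 0.30 (SE), and 1.43 without Cmg2-KO 4.

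Lilrb3 (ENSRNOG00000046683, chromosome 1, 73610149 to 73619356, minus strand), an inhibitory receptor gene, likewise had Cmg2-KO 4 as its lowest Cmg2-KO library. It stood at 31.3, 21.1, 21.9, 4.73 and 33.3 scaled counts in Cmg2-KO libraries 1 to 5, against 5.08, 5.19, 7.77, 4.04 and 3.16 in WT libraries 1 to 5. Again 4 Cmg2-KO libraries lay above all WT libraries and Cmg2-KO 4 lay among them. The log2 fold change was 1.77 ± 0.48 (SE), and 2.22 without Cmg2-KO 4. Within the genotypes Micb and Lilrb3 had Pearson's r of 0.86 and Spearman's rho of 0.70 over 10 libraries. Without Cmg2-KO 4 this r was -0.27, so the relation rests on that library. Lilrb2 (63734135 to 63741982, plus strand) and Lilrb3a (63759638 to 64013289, plus strand), whose models adjoin each other, had Cmg2-KO 4 as their lowest Cmg2-KO library as well. Lilrb2 stood at 146, 136, 119, 66.2 and 149 in Cmg2-KO libraries 1 to 5, against 80.2, 68.5, 85.5, 42.5 and 26.3 in WT libraries 1 to 5, with a log2 fold change of 1.08 ± 0.35 (SE). Lilrb3a ranged from 157 to 356 in Cmg2-KO, against 102 to 292 in WT, with a log2 fold change of 0.81 ± 0.32 (SE). The nearby Pirb, a paired immunoglobulin-like receptor gene, stood at 23.5, 0, 2.09, 2.84 and 7.28 in Cmg2-KO libraries 1 to 5 and was listed at 0 in all 5 WT libraries. RefSeq gives Lilrb3 and Pirb as other names of Lilrb2, so these 3 names may be exchanged between annotations.

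Siglec5 (ENSRNOG00000021474, chromosome 1, 98562346 to 98570949, minus strand), a receptor for sialic acids, was lower in Cmg2-KO. It stood at 343, 324, 301, 431 and 297 scaled counts in Cmg2-KO libraries 1 to 5, against 616, 623, 472, 597 and 359 in WT libraries 1 to 5. The genotypes overlapped only through Cmg2-KO 4 and WT 5. The mean was 339 ± 54.6 in Cmg2-KO and 533 ± 115 in WT (SD, n = 5 each), a log2 fold change of -0.63 ± 0.17 (SE). Clec4m (chromosome 12, 2816065 to 2826378, minus strand), a lectin of the DC-SIGN family, ranged from 4.16 to 12.2 in Cmg2-KO, against 6.07 to 30.5 in WT, with a log2 fold change of -0.88 ± 0.45 (SE).

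The libraries Cmg2-KO 4 and WT 3 recurred across these genes. Cmg2-KO 4 was the lowest Cmg2-KO library in 8 of the 9 higher genes, all but Clec2dl1, and in 19.0% of the 636 listed genes that were higher in Cmg2-KO. WT 3 was the highest WT library in 7 of the 9, and in 21.2% of the same 636 genes. Several of the 9 genes lie near each other and all share libraries, so they are not separate trials and nothing is read from these shares. Without Cmg2-KO 4 the genotypes did not overlap for 7 of the 14 genes, Lilrb2, Lilrb3, Micb and Siglec5 joining the other 3, where 24.4% of listed genes then did not overlap. Without WT 5 it was 5 genes, Klra2 and Siglec5 joining, where 24.2% of listed genes did not overlap. Over the 91 pairs of the 14 genes, the r within genotypes had a median of 0.29 and ran from -0.68 for Klri2 with Siglec5 to 0.94, and it was over 0.5 in 25.3% of pairs. Over all pairs of listed genes the median was 0.01, and 10.3% of pairs were over 0.5. Without Cmg2-KO 4 the median over the 91 pairs was 0.09 and 39 of them were below 0, while over all pairs of listed genes the median was again 0.01.

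The 3 listed genes most like each of 5 genes, Clec2dl1, Klrc2, Micb, Lilrb3 and Siglec5, were sought by the same r within genotypes over 10 libraries. For Micb they were the kinase gene Mark3 on chromosome 6 (r = 0.95), Try5 (r = 0.94) and Rtp4 (r = 0.91). Try5 was at 1.95 ± 1.29 in Cmg2-KO and 0 in WT (SD, n = 5 each), so its r rests on a few reads. Mark3 was also the nearest to Lilrb3 (r = 0.88), followed by AABR07037009.1 on chromosome X (r = 0.87) and Micb (r = 0.86). Mark3 averaged 1942 ± 407 in Cmg2-KO and 1279 ± 63.4 in WT (SD, n = 5 each), with a wide spread in Cmg2-KO as for Micb. Since Micb and Lilrb3 were far lower in Cmg2-KO 4 than in the other Cmg2-KO libraries, their r values may rest largely on that library. Without Cmg2-KO 4 the r of Micb with Lilrb3 was -0.27, and for the other genes most like them it was not computed. Klrc2 was nearest to the ubiquitin-conjugating enzyme gene Ube2d2 on chromosome 18 (r = 0.91), the calcium channel gene Cacna1d (r = 0.89) and the metal transporter gene Slc11a2 (r = 0.87). Clec2dl1 was nearest to an unnamed model on chromosome 16 (r = 0.88), AABR07070307.1 on chromosome 8 (r = 0.88) and the phosphatase gene Ppp2cb on chromosome 16 (r = 0.86). Siglec5 was nearest to an unnamed model on chromosome 1 (r = 0.92), Slc45a4 (r = 0.87) and an unnamed model on chromosome 11 (r = 0.86). The last of these was also low in Cmg2-KO, at 3.19 ± 4.09 against 32.2 ± 34.3 in WT (SD, n = 5 each). Each r is among the highest over all other listed genes, and the genes share libraries and depth.

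Markers of the cells that carry such receptors were looked up in the table, which lists 6.63% of the genes in the authors' adjustment. Of 20 genes of NK and cytotoxic cells, 10 of leukocytes in general and 20 of receptor adaptors and their signalling, 0 were listed in either direction, so the levels of Ptprc, Nkg7 or Tyrobp were not analysed here and the cells that express the receptors could not be checked. Lists for neutrophils, mast cells with other granulocytes and platelets also had 0 members listed. Of 12 dendritic cell genes 1, Flt3, was listed and higher, and of 16 monocyte and interstitial macrophage genes 1, Ly6c, was listed and lower. Of 15 B and plasma cell genes 3 were listed, all higher, with the immunoglobulin J chain gene Jchain at 3422 to 6336 in Cmg2-KO, against 1743 to 4279 in WT. Of 14 alveolar macrophage genes 1 was listed, Trem2, a myeloid receptor, at 434 ± 241 in Cmg2-KO and 181 ± 101 in WT (SD, n = 5 each). Of 14 endothelial genes 3 were listed, with Plvap higher and Tie1 and Clec1a lower. Of 19 genes for ligands of NK receptors and their class I loading 2 were listed, both lower, the peptide transporter gene Tap2 at 85.0 ± 17.9 in Cmg2-KO and 136 ± 70.4 in WT and Pdgfd at 245 ± 48.3 in Cmg2-KO and 322 ± 55.5 in WT (SD, n = 5 each). Of 26 other leukocyte receptors 3 were listed, Pirb, Trem2 and Ly49si1, all higher. None of the genes on these lists was past an adjusted p of 0.05, neither in limma (0.229% of tested genes), where Pirb was not tested because of its low values, nor by the values of the authors' deposited table (5.46% of listed genes). Their part in the differences of the receptor genes was not tested.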

How the data were processed

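RNA was extracted with Trizol from frozen lungs and sequenced as Illumina libraries made with the NEBNext Ultra kit, per the labels' protocols. The submitters' processing notes name HISAT2 2.0.5 (alignment) and featureCounts 1.5.0-p3 (counting). Strand use, genome build and annotation release are not stated there or in the labels. For each library the deposited values are a signal, namely read counts that the authors divided by a size factor. A read was worth 0.869 to 1.11 scaled counts, and in all 10 libraries 100% of values were whole multiples of it within 0.02 reads. In WT 4 that value, 1.01, lies so close to 1 that rounding could look alike, so 9 libraries were used as reads and WT 4 was included in an alternative added after seeing the data. Listed genes held 1386578 to 1531531 scaled counts per library, and total depth is unknown. The authors' deposited table also gives a log2 fold change, a fold (ratio), p-values and adjusted p-values, which match an adjustment over about 19894 genes, and, per the file headers, other columns such as gene length.

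Libraries were grouped by genotype label. Since the table holds selected genes on a scaled signal, limma 3.58.1 (trend, robust) in R 4.3.3 was run on log2(scaled count + 1) over 1308 genes above 0.5 in at least 5 libraries. Adjustment was by Benjamini-Hochberg over 19894 genes. A positive log2 fold change means higher in Cmg2-KO, and the pseudocount understates changes of low genes. Alternatives covered pseudocount, filter, scaling, variance model, replicate block, edgeR 4.0.16 and DESeq2 1.42.0 on recovered reads, adjustment and leaving out each library. No pair of libraries of a genotype with recovered reads agreed within sampling noise (chi-square per degree of freedom at least 14.9 over 16 pairs). The genes, marker lists and tests were chosen with earlier results of these data known. Every gene matching the names was described. Listed genes within 1 Mb whose description names a receptor, the 3 most similar genes of each of 5 genes and listed genes of marker lists were added. The result of 1 marker list is not reported here.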

Additional observations from a re-analysis of the deposited data

Results flagged for a closer look

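Dixon's criterion asks whether the gap between 1 library and the nearest of its genotype exceeds 0.71 of the range of 5 libraries. On log2(scaled count + 1) it was computed for 28 groups of 5 libraries, the 14 genes in each genotype, and it was met in 6, where 1 in 20 by chance gives 1.4. The library Cmg2-KO 4 was the lowest of its genotype in 5 of them. The groups share libraries and are not separate trials, so nothing is read from the count against chance.

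Micb stood at 147 scaled counts in Cmg2-KO 4, against 430.2 to 492 in libraries 1, 2, 3 and 5 of that genotype. Lilrb3 stood at 4.73 in Cmg2-KO 4, against 21.1 to 33.3 in the others. Lilrb2 stood at 66.2 in Cmg2-KO 4, against 119 to 149 in the others. Klri2 stood at 16.1 in Cmg2-KO 4, against 39.7 to 55.4 in the others. Klra2, which was lower in Cmg2-KO, stood at 92.6 in Cmg2-KO 4, against 117 to 127 in the others. Klri1 stood at 38.9 in WT 5, against 70.5 to 82.1 in the other WT libraries.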

How the results depend on the processing

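Of 22 alternatives, 5 leave log2 fold changes as they are by construction. Under the other 17 the direction of all 14 genes was the same, and 237 of 238 log2 fold changes moved by less than the SD between libraries. The other was Klra1, at -1.11 with a pseudocount of 5 against -2.27, and this low gene was left out where a mean of at least 10 was asked. Klri1 was at 0.29 without WT 5, against 0.48. Limma passed 3 listed genes in all, LOC108348080 and 2 unnamed models, named after their values were seen. It passed 0 with a replicate block, 257 when adjusted over the listed genes alone, and 1 to 6 when a library was left out, while on recovered reads edgeR passed 1 and DESeq2 passed 49, or 2 and 66 with WT 4 included. Of the 14 genes, 0 passed in limma, 7 when adjusted over the listed genes alone, 2 in DESeq2 or 4 with WT 4 included, and 0 to 1 when a library was left out (Micb without Cmg2-KO 4 and Clec2dl1 without WT 3). The count of genes whose genotypes did not overlap, 3, was 3 to 7 when a library was left out. Over all listed genes the share without overlap was 16.3%, and 20% to 25.9% when a library was left out. The labels do not say whether the replicate numbers pair the libraries, and the values do not settle it. Correlations of same-numbered deviations lay between -0.02 and 0.09, and 4 of 10 libraries correlated best with their own number. Depth limits Klra1, Ly49s4 and AABR07062152.1, which rest on a few reads per library. It also limits Lilrb3, at 3.16 to 7.77 scaled counts in WT, and Pirb, at 0 in WT. The cause of the changed counts was not tested.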

Other observations

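Of the other listed genes within 1 Mb of the chromosome 1 and chromosome 12 receptors, Pirb and Relb were higher in Cmg2-KO and all the rest were lower. Of all listed genes 48.2% were higher. Those given here were chosen after their values were seen. Relb, an NF-kB subunit gene near Micb, ranged from 281 to 382 scaled counts in Cmg2-KO, against 218 to 330 in WT. Leng1, a gene of the leukocyte receptor cluster near Lilrb2, ranged from 195 to 229 scaled counts in Cmg2-KO, against 212 to 264 in WT, with a log2 fold change of -0.21 ± 0.09 (SE). Ptprh, a receptor phosphatase gene within 1 Mb of Lilrb3, stood at 31.2 ± 13.8 in Cmg2-KO and 67.6 ± 24.4 in WT (SD, n = 5 each). In Cmg2-KO 4, where Lilrb3 was at WT level, Ptprh stood at 52.9, within the WT range of 51.1 to 110.2. Pglyrp1, a peptidoglycan recognition protein gene next to Micb, ranged from 41.6 to 67.8 in Cmg2-KO, against 52.8 to 138 in WT. Retn, the resistin gene near Clec4m, ranged from 0 to 2.09 in Cmg2-KO, against 1.01 to 7.36 in WT.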
